A study of Ovis aries with 20 samples.

Results

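Airway smooth muscle was followed through 10 genes: ACTA2, ACTG2, MYH11, CNN1, TAGLN, SMTN, LMOD1, SYNPO2, DES and MYOCD. They were taken by symbol, as contractile genes of smooth muscle and the coactivator that drives them. Of the 10, 9 had a row among the 24478 genes of the count tables, and all 9 passed the filter on low counts that kept 20097 genes for testing. LMOD1 was matched to no row by symbol or by gene identifier and was not analysed here. RNA was sequenced from frozen sheep trachea, labelled as epithelial tissue, at days 65, 80, 100, 120 and 147 of age, where day 147 is birth. WT tissue is labelled as coming from healthy donors and CF tissue from CF donors, CF being cystic fibrosis, the disease caused by loss of the chloride and bicarbonate channel CFTR. The sources used here do not give the CFTR allele of the CF animals, and the labels name no other treatment in either genotype. Each of the 10 groups of genotype and age had 2 samples, 20 in all. The study is titled as one on early deficits in the development of the CF sheep, so CF was compared with WT, and birth with day 65.

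Smooth muscle of the trachea forms the trachealis, the sheet that spans the open ends of the cartilage rings, and it is laid down early in fetal life. Its cells shorten when smooth muscle myosin pulls on filaments of smooth muscle actin, along which calponin, transgelin and smoothelin are bound, while desmin filaments tie the apparatus together. Most of these genes are switched on by the transcription factor SRF with its coactivator myocardin, and several of them, desmin above all, are also used by skeletal or cardiac muscle.

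Total counts per library ran from 42372433 to 87651829. Values below are CPM, counts relative to the TMM-scaled library size, or CPM per kb of summed exon length where levels of different genes are set side by side. EPCAM, an adhesion protein of epithelial cells, stood between 58.3 and 304.7 CPM over the libraries, and ACTA2 between 20.9 and 765 CPM, so both genes were detected in every library labelled epithelial. In such bulk tissue, fewer muscle cells and less RNA per muscle cell cannot be told apart. Both WT day 100 samples carry 1 shared identifier, as do both CF day 147 samples, and another stands on WT day 65 replicate 2 and CF day 100 replicate 2. In the other 8 groups the replicates carry different identifiers, which in 4 of them (WT days 80 and 120, CF days 65 and 80) share a stem and differ in the last digit. The labels do not say whether an identifier stands for an animal, so the p-values reflect the spread among samples that may not be separate animals. The libraries that stood apart in these genes were WT day 100 replicate 2, lowest of all 20 in all 9 genes, and CF day 80 replicate 1, which was rich in skeletal muscle RNA. By marker scores, the mean of log2 CPM above each gene's mean, skeletal muscle reached 8.82 there and 4.09 in WT day 65 replicate 2, thymus 6.34 in WT day 65 replicate 2 and 5.75 in WT day 80 replicate 2, thyroid 7.05 in the latter and liver 9.18 in CF day 65 replicate 2. ACTA2 and ACTG2 belong to the actin family, whose coding sequences are nearly identical, and the sources used here do not say how reads shared between them were counted.

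Smooth muscle genes were expressed in all libraries of both genotypes, and in neither the comparison of CF with WT nor that of birth with day 65 did any of the 9 pass the test. Over the ages, ACTA2 averaged 279 ± 114 CPM in CF and 297 ± 213 CPM in WT (SD, n = 10 each), and MYH11 139 ± 84.5 and 167 ± 117 CPM. All 9 fitted higher at birth than at day 65 in both genotypes, by a median of 1.66 on the log2 scale in WT and 1.51 in CF. Partner libraries of 1 group often differed as much as the ages did, up to 124-fold for ACTG2 between the WT day 100 libraries. In 11 comparisons, edgeR's quasi-likelihood test with Benjamini-Hochberg adjustment called 0 of 9 members each time. At an unadjusted p under 0.05 edgeR gave 1 member in 3 of these, DES in CF against WT at day 80, SMTN for birth against day 65 in WT and SMTN in the test across ages, and 0 in the other 8. DESeq2 called 1 member at day 80 (DES) and 1 in the test across ages (SMTN), and limma-voom called 0 in all 11.

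**Figure D1:**
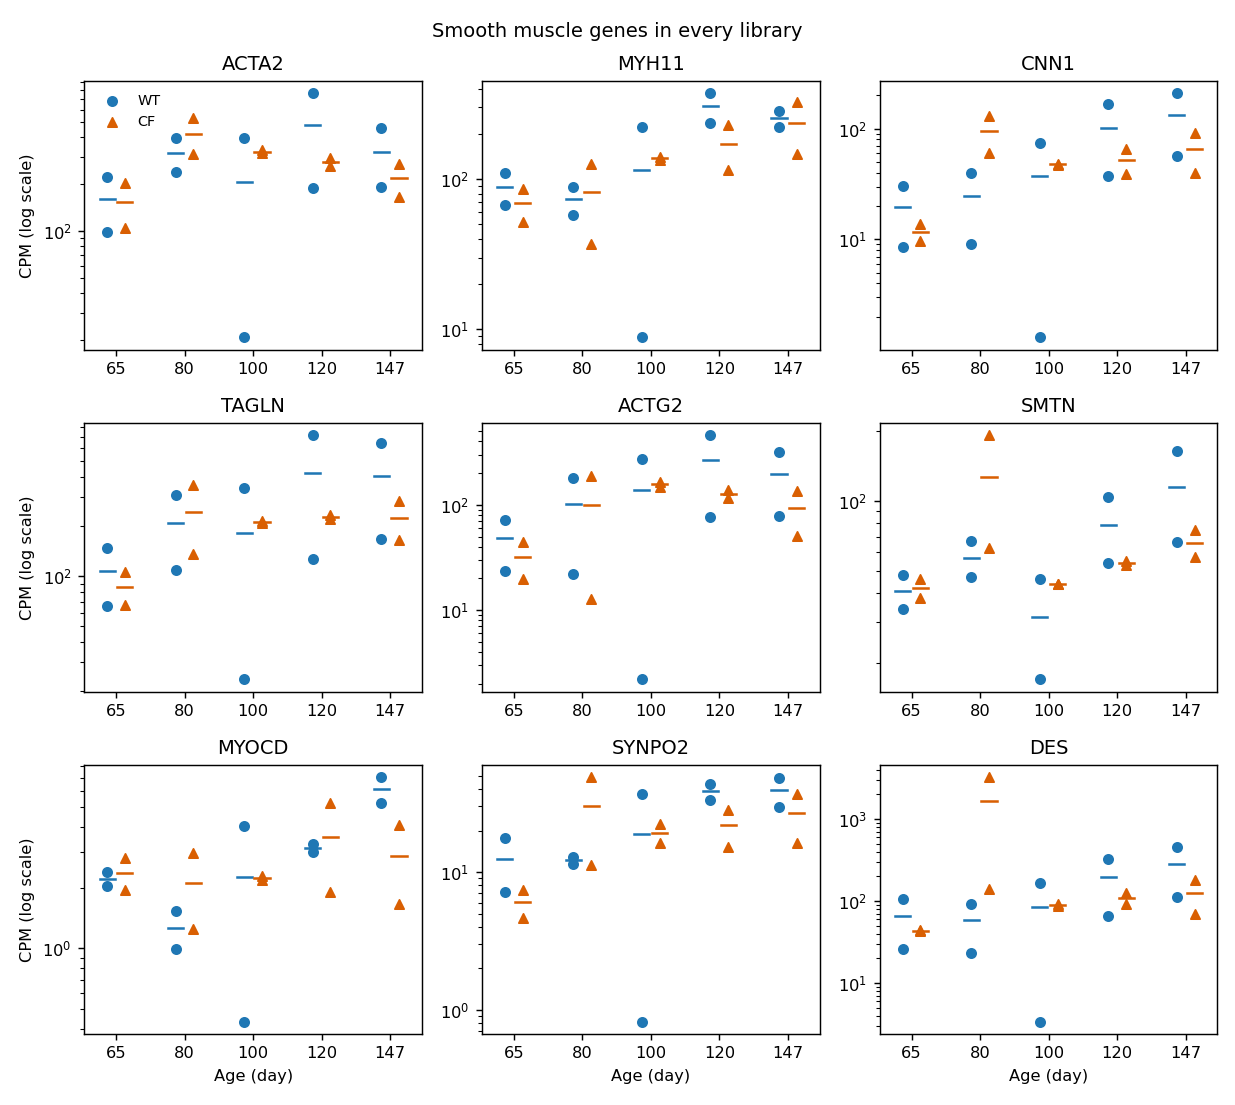
CPM of the 9 smooth muscle genes (vertical axes, log scale) by age in days (horizontal axes), with a point per library, blue circles for WT and orange triangles for CF, and a bar at the mean of each group of 2. The low WT circle at day 100 is replicate 2, at 20.9 CPM for ACTA2, and the high CF triangle at day 80 for DES is replicate 1, at 3215 CPM.

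The actins come first, as the track on which smooth muscle myosin pulls. ACTA2, encoding alpha smooth muscle actin, lies on chromosome 22 from 10338736 to 10356768, positions here being those of the deposited tables (the sources used here do not give their genome build). ACTA2 in WT stood at 99.0 and 221 CPM at day 65, 394 and 241 at day 80, 395 and 20.9 at day 100, 190.3 and 765 at day 120 and 192 and 455 at day 147. ACTA2 in CF stood at 104 and 203 CPM at day 65, 314 and 529 at day 80, 330.2 and 315 at day 100, 294 and 260.1 at day 120 and 271 and 166 at day 147. Libraries of the genotypes overlapped at every age, and the highest value, at WT day 120 replicate 2, was 4.02 times that of its partner. The lowest mean was at day 65 and the highest at day 120, while by the median of 4 libraries day 80 was highest, at 354 CPM against 154 CPM at day 65. CF against WT, averaged over ages, gave a log2 fold change of -0.07 ± 0.43 (SE), with a 95% interval of -1.0 to 0.86 and adjusted p = 0.989 (edgeR). With an interval of this width the test does not show that the genotypes were alike.

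ACTG2, encoding gamma smooth muscle actin, the main actin of visceral muscle, lies on chromosome 3 from 95503479 to 95527600. ACTG2 in WT stood at 23.5 and 72.5 CPM at day 65, 179.8 and 22.2 at day 80, 272 and 2.19 at day 100, 76.8 and 458 at day 120 and 78.2 and 315 at day 147. ACTG2 in CF stood at 19.7 and 44.4 CPM at day 65, 12.6 and 189 at day 80, 166 and 147 at day 100, 117 and 139 at day 120 and 136 and 50.8 at day 147. The 2 libraries of WT day 100 were 124-fold apart, those of CF day 80 14.9-fold and those of WT day 80 8.10-fold, and ACTG2 was the member farthest apart in 6 of the 10 groups. Its SE was the largest of the 9, with a log2 fold change of -0.51 ± 0.71 (SE) for CF against WT averaged over ages and an interval of -2.05 to 1.04 (edgeR, adjusted p = 0.847).

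MYH11, the heavy chain of smooth muscle myosin and the motor of the pair, lies on chromosome 24 from 14090323 to 14217839. MYH11 in WT stood at 67.3 and 110.5 CPM at day 65, 89.2 and 57.8 at day 80, 222 and 8.85 at day 100, 236 and 373 at day 120 and 223 and 285 at day 147. MYH11 in CF stood at 52.2 and 86.1 CPM at day 65, 37.1 and 126 at day 80, 134 and 139.9 at day 100, 115 and 229 at day 120 and 325 and 148 at day 147. All 4 libraries at birth, from 148 to 325 CPM, lay above all 4 at day 65, from 52.2 to 110.5 CPM. The mean was lowest at day 80, where ACTA2 was already near its highest. Birth against day 65 gave log2 fold changes of 1.52 ± 0.98 (SE) in WT and 1.77 ± 0.99 in CF, with adjusted p of 0.330 and 0.402 (edgeR). In a test that the level was equal at all ages, MYH11 had adjusted p = 0.194, and it passed, at 0.0323, without WT day 100 replicate 2. At day 120 both CF libraries lay below both WT libraries, with -0.82 ± 0.97 (SE) on the log2 scale with adjusted p = 1.0.

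CNN1, TAGLN and SMTN encode proteins bound to the actin filament. CNN1, encoding calponin, a marker of mature contractile cells, lies on chromosome 5 from 13491920 to 13505995. CNN1 in WT stood at 8.46 and 30.5 CPM at day 65, 39.8 and 9.13 at day 80, 73.6 and 1.30 at day 100, 37.6 and 166 at day 120 and 56.9 and 209 at day 147. CNN1 in CF stood at 9.59 and 13.8 CPM at day 65, 130.4 and 60.8 at day 80, 46.7 and 48.4 at day 100, 39.1 and 65.6 at day 120 and 91.5 and 40.0 at day 147. Day 65 held the lowest mean and birth the highest, and all 4 libraries at birth lay above all 4 at day 65. With log2 fold changes of 2.77 ± 1.35 (SE) in WT and 2.49 ± 1.34 in CF, CNN1 had the largest fitted difference between birth and day 65 of the 9 members in both genotypes (adjusted p = 0.203 and 0.374, edgeR). At day 80 both CF libraries lay above both WT libraries, with a log2 fold change of 1.97 ± 1.31 (SE, adjusted p = 0.772). Without CF day 80 replicate 1 that value was 1.32.

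TAGLN, encoding transgelin (SM22), an early marker of the lineage, lies on chromosome 15 from 27341499 to 27346971. TAGLN in WT stood at 65.5 and 148 CPM at day 65, 310.2 and 109 at day 80, 342 and 23.6 at day 100, 127 and 713 at day 120 and 168 and 638 at day 147. TAGLN in CF stood at 67.0 and 105 CPM at day 65, 136 and 354 at day 80, 216 and 211 at day 100, 236 and 221 at day 120 and 284 and 165 at day 147. Its libraries at birth lay above those at day 65 in all 4 against 4, while at each age the genotypes overlapped. CF at day 120 was tight, with 229 ± 10.4 CPM (SD, n = 2), inside the range of the 2 WT libraries. CF against WT averaged over ages came to -0.32 ± 0.47 (SE) on the log2 scale, with an interval of -1.33 to 0.70 (edgeR, adjusted p = 0.856).

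SMTN, encoding smoothelin, an actin-binding protein of contractile muscle cells, lies on chromosome 17 from 69394189 to 69417365. SMTN in WT stood at 34.1 and 47.9 CPM at day 65, 46.7 and 66.8 at day 80, 45.9 and 16.9 at day 100, 53.9 and 104 at day 120 and 66.8 and 164 at day 147. SMTN in CF stood at 37.9 and 46.1 CPM at day 65, 192 and 62.6 at day 80, 43.8 and 43.7 at day 100, 53.0 and 55.0 at day 120 and 74.6 and 57.1 at day 147. Its SE over the mean of the ages, 0.25 on the log2 scale, was the lowest of the 9, and 16 libraries lay between 34.1 and 74.6 CPM. The exceptions on the high side were CF day 80 replicate 1, WT day 147 replicate 2 and WT day 120 replicate 2, and on the low side WT day 100 replicate 2. In WT the difference between birth and day 65 was 1.49 ± 0.58 (SE) on the log2 scale, with an interval of 0.24 to 2.75, an unadjusted p of 0.0231 and an adjusted p of 0.120 (edgeR). In CF it was 0.65 ± 0.57 (SE, adjusted p = 0.664). CF minus WT, these developments differed by -0.84 ± 0.80 (SE), which missed the threshold with adjusted p = 0.914.

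SYNPO2, encoding synaptopodin 2 (myopodin), which binds actin and Z-disc proteins in smooth and striated muscle, lies on chromosome 6 from 6402800 to 6607232. SYNPO2 in WT stood at 7.14 and 17.7 CPM at day 65, 12.9 and 11.4 at day 80, 37.1 and 0.821 at day 100, 33.2 and 44.0 at day 120 and 48.6 and 29.8 at day 147. SYNPO2 in CF stood at 4.65 and 7.48 CPM at day 65, 48.8 and 11.3 at day 80, 22.4 and 16.4 at day 100, 15.3 and 28.4 at day 120 and 37.1 and 16.3 at day 147. Outside CF day 80 replicate 1, CF stood at or under 37.1 CPM in every library. Both CF libraries were below both WT libraries at day 120, with -0.82 ± 1.10 (SE) on the log2 scale (edgeR, adjusted p = 1.0). Leaving out CF day 80 replicate 1 and WT day 100 replicate 2 together, a choice made after seeing the data, gave -0.71 over the mean of the ages against -0.21 ± 0.49 (SE) with them, and neither passed (adjusted p = 0.432 and 0.926).

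DES, encoding desmin, the intermediate filament of smooth, skeletal and cardiac muscle, lies on chromosome 2 from 220321994 to 220328992. DES in WT stood at 26.3 and 104 CPM at day 65, 92.6 and 23.4 at day 80, 168 and 3.39 at day 100, 65.1 and 325 at day 120 and 114 and 449.7 at day 147. DES in CF stood at 43.4 and 43.9 CPM at day 65, 3215 and 138 at day 80, 92.7 and 87.0 at day 100, 92.1 and 126 at day 120 and 180.1 and 69.0 at day 147. CF day 80 replicate 1 was 23.2 times its partner and 3215 CPM was the highest level of DES in the series. In that library ACTA1, the actin of skeletal muscle, stood at 5766 CPM against 0.857 in the partner, and the part of skeletal muscle RNA in the DES difference was not tested. At day 80 the fitted log2 fold change of CF over WT was 4.85 ± 1.73 (SE), with an unadjusted p of 0.0151 and an adjusted p of 0.364 by edgeR, against an adjusted p of 0.0128 by DESeq2. Without CF day 80 replicate 1 it was 1.26, with adjusted p = 1.0. Over the mean of the ages the sign of DES turned with this library, from 0.47 ± 0.66 (SE) with it to -0.28 without it.

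MYOCD, encoding myocardin, the coactivator of SRF that sets the smooth and cardiac muscle programme, lies on chromosome 11 from 30646505 to 30735045. MYOCD in WT stood at 2.03 and 2.40 CPM at day 65, 1.53 and 0.992 at day 80, 4.06 and 0.433 at day 100, 3.0 and 3.28 at day 120 and 7.04 and 5.26 at day 147. MYOCD in CF stood at 1.94 and 2.81 CPM at day 65, 1.25 and 2.96 at day 80, 2.28 and 2.19 at day 100, 1.90 and 5.26 at day 120 and 4.10 and 1.66 at day 147. It had the lowest CPM of the 9 in every library. At birth both CF libraries lay below both WT libraries, with -1.10 ± 0.83 (SE) on the log2 scale, and this did not pass (edgeR, adjusted p = 0.817). Birth against day 65 was 1.47 ± 0.83 (SE) in WT and 0.28 ± 0.82 in CF, and the difference of the developments, -1.20 ± 1.16 (SE), did not pass (adjusted p = 0.914). MYOCD had its highest mean at birth and its lowest at day 80.

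Per kb of summed exon length, which allows levels of different genes to be compared, TAGLN stood first with 197 ± 150.5 CPM per kb (SD, n = 20) and ACTA2 second with 139.7 ± 80.9 CPM per kb. TAGLN was above ACTA2 in 17 of 20 libraries. DES came next by its mean of 125 ± 321 CPM per kb, which rests on CF day 80 replicate 1: its median was 42.5, and it was above ACTG2 in 2 of 20 libraries. ACTG2 had 90.0 ± 83.0 CPM per kb and was above CNN1, at 39.1 ± 36.0, in 19 libraries. The neighbours CNN1, SMTN and MYH11 were close: CNN1 was above SMTN (25.6 ± 16.5 CPM per kb) in 15 libraries, and SMTN above MYH11 (23.4 ± 15.3) in 11, so the order of the last pair is not beyond their spread. SYNPO2 at 2.81 ± 1.85 and MYOCD at 0.316 ± 0.183 CPM per kb closed the order, and SYNPO2 was above MYOCD in all 20.

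The ratio of the motor MYH11 to the track ACTA2 was lowest at day 80. MYH11 over ACTA2, as a ratio of CPM per kb within a library, was 0.0714 and 0.0755 in WT and 0.0372 and 0.0752 in CF at day 80. All 4 of these lay below each of the 16 libraries of the other ages, the lowest of which was 0.123 in CF day 120 replicate 1. Among the day 80 libraries, CF replicate 1 was rich in skeletal muscle RNA and WT replicate 2 scored high for thyroid and thymus markers. The part of these tissues in the ratio was not tested. WT replicate 1 and CF replicate 2 stood at 0.0714 and 0.0752. At birth the ratio was 0.366 and 0.197 in WT and 0.378 and 0.279 in CF, and at day 65 it ran from 0.134 to 0.214. A ratio within a library is free of its depth, and the genotypes overlapped at every age. ACTG2 over ACTA2 ran from 0.279 to 0.482 at day 65 and from 0.587 to 0.880 at day 120, so that these ages did not overlap. It was lowest in CF day 80 replicate 1 (0.0592), WT day 80 replicate 2 (0.136) and WT day 100 replicate 2 (0.154). TAGLN over ACTA2 was 0.907 to 1.17 at day 65 and 1.53 to 2.45 at birth, again with no overlap. These ratios were formed after the members' levels had been seen and are given as a description, with no test.

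**Figure D2:**
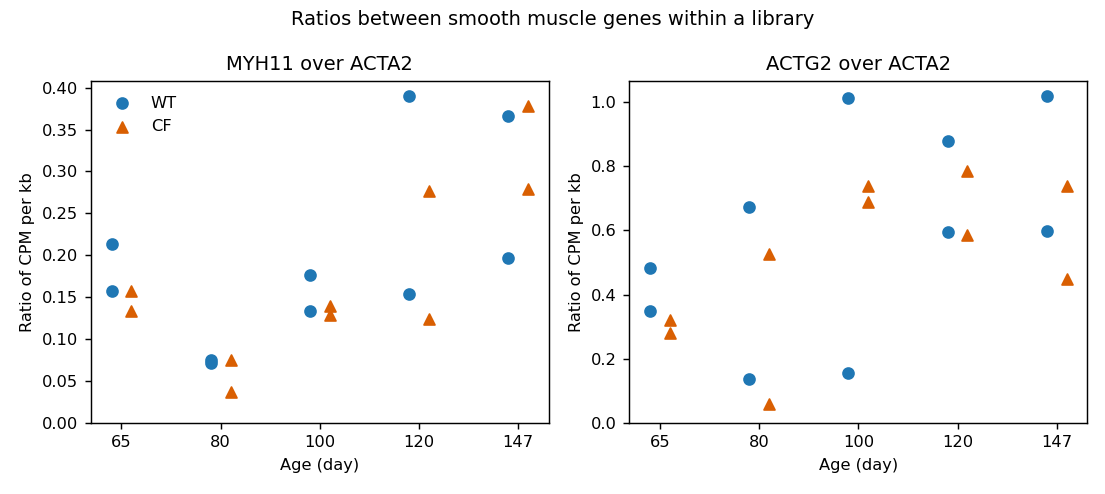
Ratio of MYH11 to ACTA2 (left) and of ACTG2 to ACTA2 (right), each of CPM per kb, on linear axes from 0, against age in days (ages evenly spaced), with a point per library, blue circles for WT and orange triangles for CF. The 4 libraries of day 80 lie between 0.0372 and 0.0755 for MYH11 over ACTA2, below all others.

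With the ages averaged, no member's difference between CF and WT passed the test. Over the mean of the ages, edgeR called 0 of 9 members, beside 154 of 20097 genes (0.766%). The members' log2 fold changes, CF over WT, ran from -0.51 for ACTG2 to 0.47 for DES, with 2 above 0 and 7 below, a median of -0.08 and a median of 0.01 over all genes tested. Adjusted p lay between 0.847 and 1.0. These genes were measured less tightly than most: their SE ran from 0.25 (SMTN) to 0.71 (ACTG2), against a median of 0.24 over all genes. The 95% intervals together spanned -2.05 to 1.89, and for CNN1 and ACTG2 the interval reached past 2-fold in both directions. The direction of the median rested on single libraries. Without WT day 100 replicate 1 it was 0.57, with all 9 above 0, and without replicate 2 of that group -0.30, with 8 below 0. Without both CF day 80 replicate 1 and WT day 100 replicate 2 all 9 were below 0, at a median of -0.41, and still 0 were called. Scaled by library size alone the median was 0.05, by limma-voom 0.13 and with the length slope as a covariate 0.12.

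**Figure D3:**
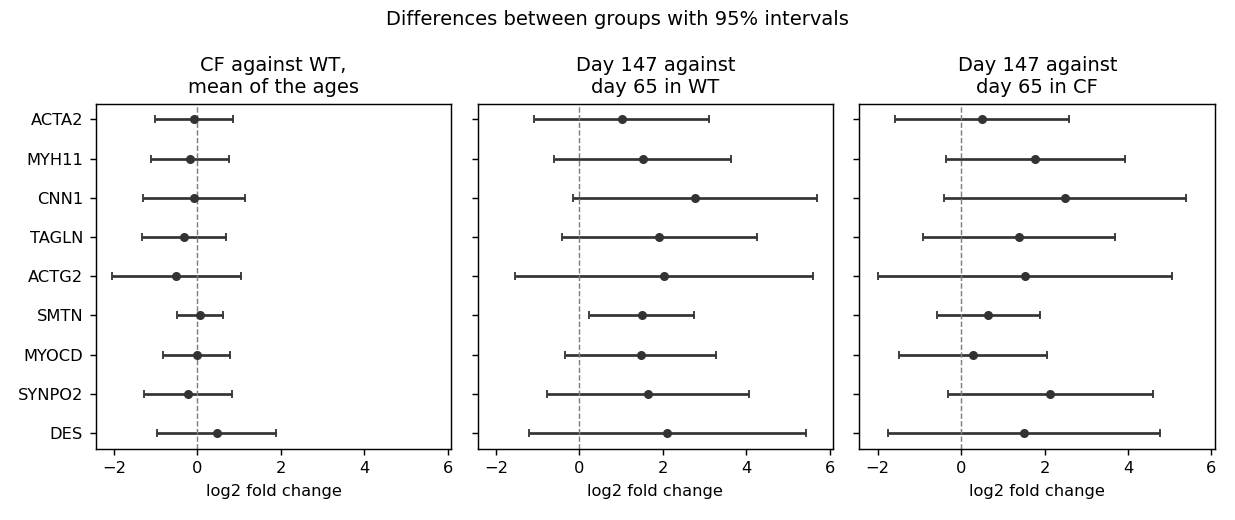
Log2 fold changes of the 9 genes (horizontal axes) for CF against WT averaged over ages (left), and for day 147 against day 65 in WT (middle) and in CF (right). Points are edgeR estimates from 20 libraries, bars are 95% intervals and the dashed line marks 0. SMTN in WT, at 0.24 to 2.75, is the one interval of the 27 that does not reach 0.

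Taken age by age, the members' median difference was above 0 at days 80 and 100 and below 0 at days 65, 120 and 147, with no member past the test at any age. At day 65 the median over the 9 members was -0.36 on the log2 scale (-0.0038 over all genes), with 2 above 0, and edgeR called 0 of them, beside 0.00995% of all genes. No member's libraries were apart there, against 23.8% of genes higher and 23.7% lower in CF with no overlap. At day 80 the median was 0.74, with 8 above 0 and 0 called, and 0.0% of all genes were called. CNN1 and DES were higher in both CF libraries, 2 of 9 against 11.5% of genes, and 0 of 9 were lower in both, against 10.8%. CNN1 stood at 130.4 and 60.8 CPM in CF at day 80, against 39.8 and 9.13 CPM in WT.

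At day 100 the CF libraries were close to each other and lay between the 2 WT libraries in all 9 members. CF replicates differed by 1.00-fold (SMTN) to 1.37-fold (SYNPO2), the narrowest of the 10 groups. edgeR called 0 of 9 members, beside 1.46% of all genes (1.4% higher in CF). None was apart in either direction, where 40.5% of genes were higher and 30.0% lower in both CF libraries. The median, 0.23 beside 0.12 over all genes, was 3.85 without WT replicate 1 and -0.77 without WT replicate 2, with 0 members called in either case. The sign at day 100 thus differed with the WT library left out.

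Late in gestation most fitted differences were below 0, and none passed. At day 120 the median was -0.82 (0.01 over all genes), 8 of 9 were below 0, and edgeR called 0 members and 0.0% of all genes. MYH11 and SYNPO2 were lower in both CF libraries, 2 of 9 against 7.61% of genes, and none was higher in both, against 8.91%. At birth all 9 were below 0, with a median of -0.84 (-0.06 over all genes) and a range from -1.18 (DES) to -0.10 (MYH11). edgeR called 0 of 9 there, beside 0.0945% of all genes, and MYOCD alone was apart on the low side, 1 of 9 against 15.6% of genes, with 0 on the high side against 15.6%. The 2 WT libraries of each late age did not stand alike against CF. WT day 120 replicate 1 lay below both CF libraries in ACTA2 (190.3 against 294 and 260.1 CPM), CNN1, TAGLN, ACTG2 and DES. In SMTN and MYOCD it lay between them. WT day 147 replicate 1 lay between the CF libraries in all members but MYOCD and SYNPO2, where it was above both. WT day 120 replicate 2 and WT day 147 replicate 2 were the libraries with the highest mean deviation over the 9 members, 1.64 and 1.61 log2 units above the genes' means. Slopes of log2 CPM on log2 gene length were -0.174 and -0.243 in these, within a range of -0.243 to 0.245 over the 20 libraries. A fit with this slope as a covariate called 0 members at day 120 and 0 at birth. How far that fit moved the late differences is not reported here. A test that the genotype difference was the same at all ages called 0 of 9 members (adjusted p from 0.842 to 0.996) and 0.0697% of all genes, so the differences among ages did not pass.

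From day 65 to birth every member was fitted higher in both genotypes, though none passed. In WT the log2 differences ran from 1.01 (ACTA2) to 2.77 (CNN1), with a median of 1.66 beside -0.02 over all genes, and in CF from 0.28 (MYOCD) to 2.49 (CNN1), with a median of 1.51 beside -0.01. edgeR called 0 of 9 in WT, beside 8.23% of all genes, and 0 of 9 in CF, beside 5.49%. The lowest adjusted p was 0.120 in WT (SMTN) and 0.369 in CF (SYNPO2). Both libraries at birth were above both at day 65 for 8 of 9 members in WT, all but ACTA2, where 25.7% of genes were, and for 7 of 9 in CF, all but ACTA2 and MYOCD, where 28.9% were. With the genotypes joined, 4 libraries against 4, MYH11, CNN1, TAGLN and SMTN did not overlap, 4 of 9 against 12.2% of genes. The members' median SE was 1.08 in WT against 0.55 over all genes.

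Developments in CF and WT were compared directly as well. Their difference, CF minus WT, ran from -1.20 (MYOCD) to 0.48 (SYNPO2), with adjusted p from 0.914 to 0.987, 0 of 9 called and 0.00498% of all genes called (edgeR). Both developments are also read from libraries that stood apart: without WT day 65 replicate 2, which held skeletal muscle RNA, the WT median was 2.45, and without WT day 147 replicate 2 it was 0.81. All 9 stayed above 0 in WT in each of these fits. Scaled by library size alone, which moves the median of all genes to -0.36 in WT and -0.23 in CF, the members' medians were 1.35 and 1.34. A test over all 5 ages on the mean of the genotypes called 0 of 9 members, with adjusted p from 0.10 (SMTN) to 0.572 (ACTG2), and 17.9% of all genes. Without WT day 100 replicate 1 it called MYH11, CNN1 and SYNPO2, and without replicate 2 of that group MYH11.

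The WT day 100 libraries, which share an identifier, differed far more in the 9 members than over all genes. ACTA2 stood at 20.9 CPM in replicate 2 and 395 in replicate 1, a difference of 18.9-fold, MYH11 was 25.1-fold, DES 49.5-fold and CNN1 56.6-fold lower, and SMTN, the least affected, 2.71-fold lower. The median over the 9 was 25.1-fold, against 1.22-fold in either direction over all genes tested. Counts behind the low values were 1829 for ACTA2, 776 for MYH11 and 38 for MYOCD. Of 39 other contractile and cytoskeletal genes, 15 were over 2-fold lower in replicate 2 and 0 over 2-fold higher; PLN, which restrains the calcium pump of the muscle store, was 61.1-fold, MYLK, the kinase that starts contraction, 17.5-fold and MYL9, its light chain target, 4.24-fold lower. EPCAM was at 305 and 285 CPM and the cartilage collagen COL2A1 at 60.4 and 59.9 CPM. Replicate 2 had the lowest score of the 20 libraries for cartilage (-1.18), endothelium (-2.30), fibroblasts (-1.93) and pericytes (-1.74). Replicate 1 was low in these lists too, at -1.10 for cartilage, -1.90 for endothelium, -1.54 for fibroblasts and -1.325 for pericytes. The epithelium score was highest in replicate 2, at 0.66, and replicate 1 was close to it, at 0.63. Over 2-fold lower in replicate 2 were also 4 of 14 pericyte genes, 12 of 48 skeletal muscle genes and 2 of 20 fibroblast genes, against 6.34% of all genes, with list medians of -0.02, -0.32 and -0.44 on the log2 scale. SRF itself was higher in replicate 2, at 12.3 against 7.39 CPM. The ratio of MYH11 to ACTA2 was 0.134 in replicate 2, against a range over all 4 day 100 libraries of 0.128 to 0.177. Other ratios differed more between the replicates. ACTG2 over ACTA2 was 0.154 in replicate 2 against 1.013 in replicate 1, and DES over ACTA2 0.1535 against 0.401. TAGLN over ACTA2 was higher in replicate 2, at 1.977 against 1.513. With 1 library on each side these are values of 2 libraries and carry no test, and MYLK, COL2A1 and SRF were chosen after their values were seen.

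CF day 80 replicate 1 differed from its partner in both directions, with 4 members higher and 5 lower. Of skeletal muscle markers, 48 of 48 tested were over 2-fold above the partner library, among them CKM, creatine kinase of muscle, at 2476 against 0.565 CPM and MYOG, a factor of muscle differentiation, at 90.5 CPM against 0. DES was 23.2-fold, SYNPO2 4.33-fold, SMTN 3.06-fold and CNN1 2.14-fold higher there. In the same library ACTG2 was 14.9-fold, MYH11 3.40-fold, TAGLN 2.61-fold, MYOCD 2.37-fold and ACTA2 1.68-fold lower, as was EPCAM, at 58.3 against 136 CPM. WT day 65 replicate 2 also held skeletal muscle RNA, with ACTA1 at 89.6 against 0.127 CPM and 46 of 48 markers over 2-fold above its partner, and 6 of 6 thymus markers and 5 of 9 immune genes were over 2-fold above it too. In that library all 9 members were higher than in the partner, from 1.19-fold (MYOCD) to 3.97-fold (DES). In the other 18 libraries the skeletal muscle score, the mean deviation of its markers in log2 CPM, lay between -1.41 and -0.09, against 8.82 and 4.09 in these, and the part of these tissues in the members' values was not tested.

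**Figure D4:**
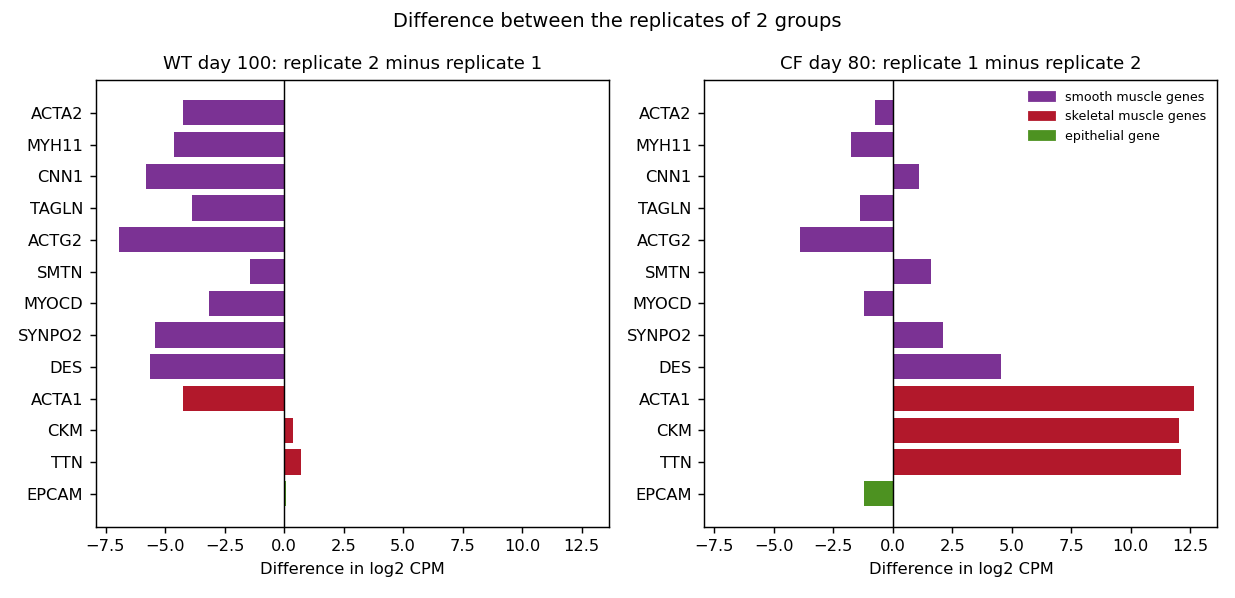
Difference in log2 CPM (horizontal axes) between the replicates of WT day 100 (left, replicate 2 minus replicate 1) and of CF day 80 (right, replicate 1 minus replicate 2) for the 9 smooth muscle genes (purple), 3 skeletal muscle genes (red) and the epithelial gene EPCAM (green). All 9 purple bars point to lower values on the left, from -1.44 (SMTN) to -6.93 (ACTG2), and on the right 4 point to higher and 5 to lower values.

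Levels of the members were positively correlated over the libraries in every pair. Pearson's r of log2 CPM over the 20 libraries ran from 0.399 (ACTG2 and SMTN) to 0.935 (TAGLN and ACTG2), with a median of 0.744 over the 36 pairs, and from 0.234 to 0.967 without CF day 80 replicate 1 and WT day 100 replicate 2. The libraries share identifiers in part, and within each the genes share its depth, scaling and tissue make-up, so these values are descriptions. Of tested genes with a symbol outside the members, those closest to the mean deviation of the 9 were OSTN (r = 0.956), FGL2 (0.932), PCP4L1 (0.890), UTS2B (0.874), PLN (0.873), KCNMB1 (0.852), ANGPTL5 (0.838) and MYL9 (0.837), each over 20 libraries. OSTN, encoding the secreted peptide osteocrin, stood at 3.55 and 8.16 CPM at day 65, 30.6 and 3.42 at day 80, 67.2 and 0.114 at day 100, 25.7 and 83.0 at day 120 and 50.5 and 195 at day 147 in WT. OSTN in CF stood at 2.27 and 4.82 CPM at day 65, 14.0 and 30.6 at day 80, 40.7 and 28.8 at day 100, 38.5 and 74.7 at day 120 and 54.8 and 32.1 at day 147. Its lowest library, at 0.114 CPM, was WT day 100 replicate 2, as for the members. OSTN was picked by its correlation over these same libraries, so a shared lowest library is no separate result. Without CF day 80 replicate 1 and WT day 100 replicate 2, r with the mean deviation ran from 0.730 (ANGPTL5) to 0.938 (OSTN) among the genes listed as closest to it. By single members, the closest gene was RASL12 for ACTA2 (r = 0.880), MYLK for MYH11 (0.934), OSTN for CNN1 (0.934) and TAGLN (0.917), HPSE2 for ACTG2 (0.943), MUSTN1 for SMTN (0.869), RTN4RL1 for MYOCD (0.879), PLN for SYNPO2 (0.911) and SH3BGR for DES (0.955).

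Other genes of the contractile apparatus were called in some comparisons and not in others. Of 39 further contractile and cytoskeletal genes, all tested, edgeR called 0 in CF against WT averaged over ages, and 1 for birth against day 65 in WT (beside 8.23% of all genes) and 3 in CF (beside 5.49%), all lower at birth. Their median difference from day 65 to birth was -0.21 in WT and -0.17 in CF on the log2 scale. CNN2, the calponin of non-muscle cells, went from 174 and 121 CPM at day 65 to 31.0 and 27.1 CPM at birth in WT, and fell by 2.34 ± 0.28 (SE) on the log2 scale (adjusted p = 0.000832). In CF it went from 183 and 154 to 67.2 and 64.7 CPM and fell by 1.35 ± 0.27 (adjusted p = 0.0113). CNN1 and CNN2, muscle and non-muscle calponin, were thus fitted in opposite directions, with CNN2 alone past the test. ITGA5 and ITGA8, integrin subunits that hold cells to the matrix, fell in CF by 1.41 ± 0.37 and 1.73 ± 0.46 (SE, adjusted p = 0.0443 and 0.0464), and the calls were lost in 18 and 22 of 33 alternative settings. At day 100, 2 of 39 were higher in CF, ITGA5 at 66.7 and 89.3 against 18.8 and 9.76 CPM and KANK2 at 63.9 and 68.8 against 26 and 18.2 CPM (adjusted p = 0.00832 and 0.00946). These day 100 counts stand beside 1.46% of all genes, and with samples of a shared identifier summed, as the WT pair then is, both calls were lost (adjusted p from 0.151 to 0.177). CNN2 in WT was lost when the compared groups were fitted alone (adjusted p = 0.187), as were all WT calls of birth against day 65, and in CF CNN2, ITGA5 and ITGA8 were lost with samples of a shared identifier summed (adjusted p from 0.176 to 0.302). In the test across ages 10 of 39 passed, beside 17.9% of all genes, among them CNN2, ITGA5, ITGA8 and KANK2.

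Regulators of smooth muscle development gave calls in both directions between day 65 and birth. Of 36 listed, 33 were tested, and 4 fell and 1 rose from day 65 to birth in WT, against 1 and 1 in CF, with medians of -0.87 and -0.65, where 8.23% and 5.49% of all genes were called. HEY1, a repressor downstream of Notch, rose from 11.2 and 12.9 to 37.6 and 46.2 CPM in WT (1.80 ± 0.28 SE on the log2 scale, adjusted p = 0.00252) and from 14.4 and 12.8 to 29.1 and 27.9 CPM in CF (1.07 ± 0.27, adjusted p = 0.0391). PRRX1, a homeobox factor of mesenchyme, fell from 95.7 and 101 to 38.5 and 33.3 CPM in WT and from 74.7 and 82.0 to 22.4 and 21.6 CPM in CF (adjusted p = 0.0206 and 0.00711). NOTCH3, the Notch receptor of mural cells, fell in WT from 177 and 142 to 60.3 and 25.3 CPM (adjusted p = 0.0200), HEY2 from 4.56 and 4.65 to 1.43 and 0.795 CPM (adjusted p = 0.0296), and BMP4, a growth factor of lung mesenchyme, from 22.5 and 22.1 to 11.6 and 6.19 CPM (adjusted p = 0.0330); BMP4 was added to the named genes after its value was seen. SRF, the partner of MYOCD, was not called in any comparison and ran from 2.88 to 24.6 CPM over the libraries. With the compared groups alone the calls of HEY1, PRRX1, NOTCH3, HEY2 and BMP4 in WT were lost (adjusted p from 0.193 to 0.287), and with samples of a shared identifier summed those of HEY1 and PRRX1 in CF (adjusted p from 0.112 to 0.241). Across ages 11 of 33 passed, beside 17.9% of all genes. At day 100 PRRX1 was higher in CF, at 56.3 and 76.4 against 20.1 and 12.9 CPM (adjusted p = 0.0136, and 0.262 with samples of a shared identifier summed), and the list's median was 1.06.

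Of 40 genes of contraction signalling, 37 were tested. PTGFR was the 1 called between the genotypes over the mean of the ages, beside 0.766% of all genes. It encodes the receptor for prostaglandin F2 alpha, which contracts smooth muscle. PTGFR in WT stood at 10.5 and 18.5 CPM at day 65, 8.21 and 27.5 at day 80, 21.9 and 10.4 at day 100, 14.8 and 11.1 at day 120 and 17.1 and 11.1 at day 147. PTGFR in CF stood at 3.97 and 4.72 CPM at day 65, 3.47 and 4.52 at day 80, 13.2 and 6.04 at day 100, 4.12 and 6.01 at day 120 and 6.75 and 4.31 at day 147. The 10 WT libraries ran from 8.21 CPM up, and of the CF libraries CF day 100 replicate 1 alone reached into that range. Its log2 fold change was -1.47 ± 0.26 (SE, adjusted p = 0.0261), from -1.65 to -1.14 over 37 alternatives, and the call was lost in 20 of these, 10 of them fits that left out 1 library (adjusted p up to 0.166). EDNRA, a receptor of endothelin, fell from 71.2 and 59.8 to 17.4 and 11.1 CPM in WT and from 52.3 and 71.8 to 15.7 and 16.9 CPM in CF (adjusted p = 0.00230 and 0.00439). PTGER4, a prostaglandin E2 receptor that relaxes airways, rose from 16.7 and 17.3 to 51.0 and 88.6 CPM in WT and from 11.6 and 11.4 to 48.4 and 42.0 CPM in CF (adjusted p = 0.00460 and 0.00575). At day 100 AGTR1, the type 1 angiotensin receptor, was higher in CF, at 10.7 and 12.1 against 1.88 and 0.456 CPM (adjusted p = 0.0400, and 0.218 with samples of a shared identifier summed). Of all genes, 8.23% were called for birth against day 65 in WT, 5.49% in CF, and 1.46% between the genotypes at day 100. The calls of EDNRA and PTGER4 were lost in WT with the compared groups alone (adjusted p from 0.187 to 0.193). In CF they were lost with samples of a shared identifier summed (adjusted p from 0.0728 to 0.104). The list's median was 0.05 over the mean of the ages, -0.44 for birth against day 65 in WT and 0.04 in CF, and 7 of 37 passed in the test across ages, near the 17.9% of all genes.

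Markers of other mesenchymal cells were called at day 100. Of 20 fibroblast genes, 11 were called higher in CF and 0 lower, beside 1.4% of all genes called higher. Their list median was 2.21, beside 0.23 for the 9 members. Of 14 pericyte and vascular muscle genes, CSPG4 and ABCC9 were called higher (list median 1.49). Of all genes, 40.5% were higher in both CF libraries than in both WT libraries at this age. By adjusted p the first of the fibroblast genes were COL6A1, COL1A1, PDGFRA and FBLN2, 3 of them matrix genes and PDGFRA a growth factor receptor. The fibroblast score was -1.54 and -1.93 in the WT day 100 libraries, against -0.81 to 0.71 in the other 18, so it was low in both, whereas the members' score was 0.89 in the first and -3.68 in the second. With samples of a shared identifier summed, as the 2 WT libraries then are, 0 genes were called at day 100 (edgeR, 1226 at an unadjusted p under 0.05), so all 11 fibroblast calls were lost. Calls at day 100 for ITGA5, KANK2, PRRX1, AGTR1, CSPG4 and ABCC9 were all lost without WT day 100 replicate 2. Over development NOTCH3 fell and STEAP4 rose among the pericyte genes in WT, where 8.23% of all genes were called. STEAP4 went from 1.64 and 2.29 to 40.7 and 4.04 CPM (edgeR, adjusted p = 0.0405, lost in 20 of 33 alternatives). Mural cells of vessels also express ACTA2, MYH11 and TAGLN, and their part in the members' levels was not tested.

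**Figure D5:**
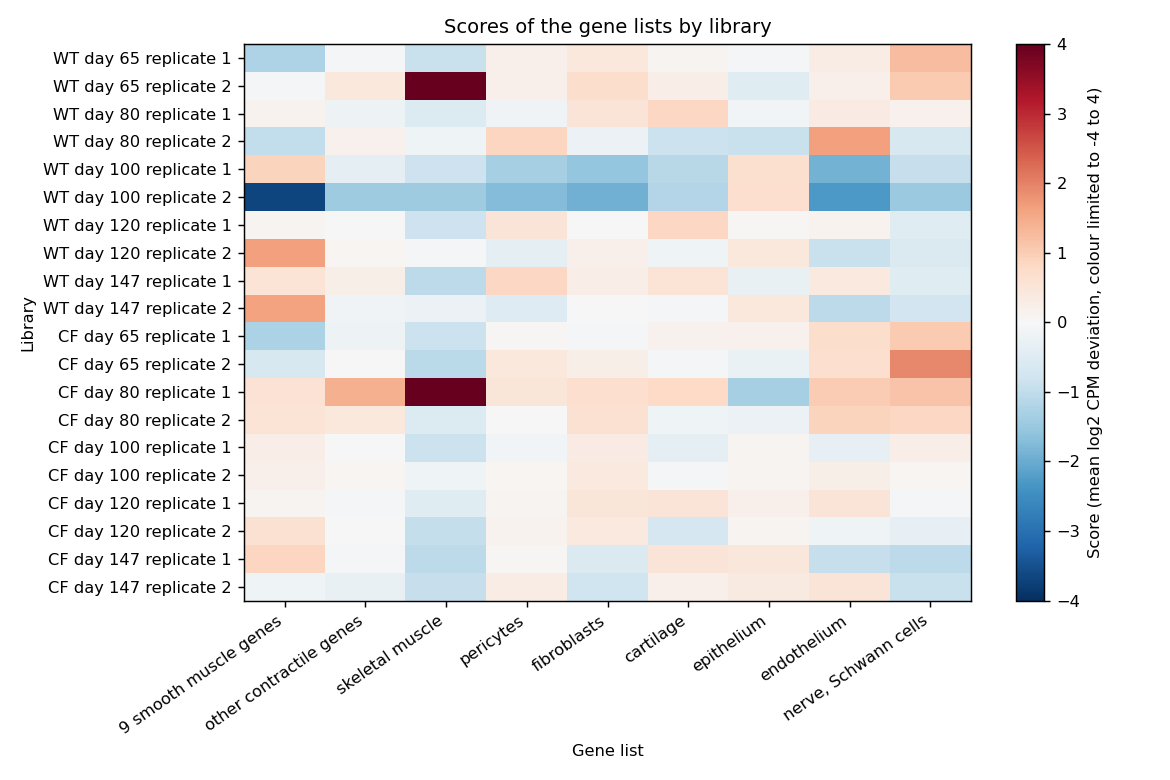
Scores of 9 gene lists (columns) in the 20 libraries (rows), a score being the mean over a list's genes of log2 CPM after subtraction of that gene's mean, with colour limited to -4 to 4. WT day 100 replicate 2, at -3.68, is lowest in the smooth muscle column and WT day 120 replicate 2, at 1.64, highest, and the skeletal muscle column exceeds 4 in CF day 80 replicate 1 and WT day 65 replicate 2.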

How the data were processed

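RNA-seq read counts per gene were deposited by the authors as raw counts for 20 tracheal samples, per the file headers from featureCounts. The submitters' processing notes name STAR 2.6 and featureCounts 1.6.3 of Subread, while the sources used here do not give genome build, annotation or strand setting. Of the 24478 genes, 8432 identifiers had no symbol, and 501 of these were given one from RefSeq names for assembly ARS-UI_Ramb_v3.0, whose coordinates were not used. Genes kept by filterByExpr (20097) were scaled by TMM and fitted with edgeR 4.0.16 (R 4.3.3) by its quasi-likelihood test, with 1 coefficient per group over all 20 samples. Contrasts of these coefficients gave each comparison, p-values were Benjamini-Hochberg adjusted over all genes tested, and calls were made at 0.05. The SE is the log2 fold change over the root of F, and intervals are 95%. Log2 CPM used a prior count of 2. Replicates of every group differed beyond sampling noise (chi-square per gene from 37.63 to 1662, over genes with a total count of at least 10). Members and gene lists were chosen with earlier results of these data known. Besides the members, the text names up to 4 called genes per list and comparison by smallest adjusted p, the 8 genes most correlated with the members' score, the 1 most correlated with each member, and defining genes of other tissues. DESeq2 1.42.0, limma 3.58.1 (limma-voom), other scaling and filters, the replicate block, and each sample left out were tried as alternatives. Each gene list was matched by symbol, and unmatched genes were not analysed here.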

Additional observations from a re-analysis of the deposited data

How the results depend on the processing

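Over 38 settings, 2700 member values under alternatives, in the comparisons with a fold change, held 218 changes of sign. The main fit called 0 members, so there was no called value whose sign could change. Over all 11 comparisons, which include the F tests without a fold change, 16 calls were gained. At day 80 DESeq2 called 1 member (DES). For birth against day 65 in WT, leaving out 1 replicate gave 0 to 1 members (SMTN without WT day 147 replicate 1). In CF the compared groups alone gave 3 (CNN1, TAGLN, SYNPO2), and leaving out the 2 libraries high in skeletal muscle and WT day 100 replicate 2 gave 1 (SYNPO2). In the test across ages DESeq2 called 1 (SMTN), samples of a shared identifier summed gave 1 (MYH11), and leaving out 1 replicate gave 0 to 3. That test gave 2 members (MYH11, SYNPO2) without CF day 80 replicate 1 and WT day 100 replicate 2, and 1 (SYNPO2) with both skeletal muscle libraries and WT day 100 replicate 2 left out. The cause of these changes was not tested. With the replicate number as a block 0 members were called in every comparison. Deviations of same-numbered WT and CF samples correlated at 0.097, -0.132, -0.049, -0.528 and 0.254 over the ages. Over all 45 pairs of groups such correlations ran from -0.588 to 0.733, so these values cannot decide whether the numbers pair the samples. With 2 samples per group, the 95% intervals of the members for CF against WT averaged over ages spanned -2.05 to 1.89 on the log2 scale.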
